A study of Mus musculus with 2 samples.

Results

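The histone genes measured here are the 78 protein-coding genes with a histone symbol among the 45777 genes of the deposited table, chosen by symbol alone. They comprise 63 replication-dependent genes of the Hist1 and Hist2 clusters and the 15 remaining genes, here called replacement genes, that lie outside both. Of the cluster genes, 53 belong to Hist1 (chr13:21715711-23934913 on GRCm38) and 10 to Hist2 (chr3:96219885-96270192). Transcripts were measured by RNA-seq in 1 teratoma library from E14, a mouse ESC line labelled wild type, and in 1 teratoma library from E14 cells that carry Sox2 T258A on 1 allele, introduced with CRISPR-Cas9 and derived from a single-cell clone. The cells were inoculated subcutaneously into BALB/c-nu nude mice, 3 per group, and the tumors were taken at 14 days. The age of the hosts and whether RNA of several tumors was combined were not stated, and host cells in a tumor are also murine. The labels give teratoma as tissue, although their extraction text refers to the cell line. Values for every gene are listed as read counts and as TPM, a level per transcript length that has the same total in each library. Genes took up 50529171 reads of the E14 teratoma and 49030281 of the Sox2 T258A teratoma, and these libraries are called E14 and T258A from here on. With 1 library per group, the values compare those libraries and give no test of the genotype.

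Replication-dependent histone genes encode the linker histone H1 and the core histones H2A, H2B, H3 and H4 that package newly made DNA in S phase. Their mRNAs are mostly intronless and end in a conserved stem loop, bound by Slbp, in place of a poly(A) tail. Replacement histones such as H3.3 and H2A.Z are made throughout the cell cycle from ordinary polyadenylated mRNAs and are placed in chromatin outside replication. The labels give polyA RNA as the molecule sequenced, and mRNAs without a poly(A) tail are poorly recovered in such libraries, so the cluster levels below are levels of what was captured and not of all histone mRNA.

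The stem loop separated the classes in the GENCODE M21 annotation of GRCm38. It was found in 42 of 63 cluster genes, and in 42 of the 46 whose annotated 3′ end was at least 50 bases long, at 21 to 58 bases past the stop codon. Among replacement genes it was found in 1 of 15, and in 1 of the 10 with a 3′ end of that length. This gene was H2afx, which is known to make both a stem-loop form and a polyadenylated form. Of the cluster genes, 58 of 63 had a single exon, as did 10 of 15 replacement genes. The core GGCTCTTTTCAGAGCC occurred in 24 of the 42 genes, in the H1, H2A, H2B and H3 families, and none of the 10 H4 genes with a stem loop had it. The loops below are shown, 5′ to 3′ on the strand of the gene, for the most abundant member of each family with an annotated loop and for H2afx, with the 16-base core in capitals.
H1f2: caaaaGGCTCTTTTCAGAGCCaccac
H2ac18: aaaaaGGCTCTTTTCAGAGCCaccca
H2bc12: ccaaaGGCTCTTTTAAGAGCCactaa
H3c3: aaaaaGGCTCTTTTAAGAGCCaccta
H4c9: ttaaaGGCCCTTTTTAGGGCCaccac
H2afx: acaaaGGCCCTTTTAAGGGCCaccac
The annotated transcripts of 20 cluster genes continued for over 100 bases past the loop, and those of 22 ended within 100 bases of it. H2bc4, the most abundant H2B gene, had no stem loop in its annotated transcripts, which are spliced.

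Nearly all captured histone mRNA came from replacement genes. The 15 replacement genes summed to a TPM of 4017 in E14 and 4577 in T258A, and the 63 cluster genes to 195 and 274. Cluster genes thus held 4.63% of the histone TPM in E14 and 5.64% in T258A. The cluster sum leaves out histone genes outside the symbol rule, among them H2bu2, an H2B gene on chromosome 11. H2bu2 had a TPM of 133 in E14 and 36.1 in T258A. Counted with the cluster genes, it would make both their summed TPM and their share lower in T258A than in E14. In bulk libraries such as these, fewer cells of a type and less RNA per cell cannot be told apart. Histones as a whole held 0.421% and 0.485% of all TPM. A total of 75 histone genes had reads, 68 reached a TPM of 1 in either library and are called detected below (59 cluster and 9 replacement genes), and 13 reached a TPM of 10 (4 cluster and 9 replacement genes). All 9 replacement genes past a TPM of 1 were thus also past a TPM of 10, while most cluster genes lay between these levels.

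The rule of the study for a changed gene, a TPM fold above 2 where either library reaches a TPM of 10, was passed by 3 histone genes with higher expression in T258A and by 0 with lower expression, of the 13 that could pass. Over all 11578 genes with that level, 10.8% (1253) were higher and 18.7% (2167) lower. Both counts are larger than those the paper reports for its teratomas, and why was not examined. Among detected genes, 16 of 68 histone genes were more than 2-fold higher and 2 more than 2-fold lower, against 19.3% and 18.9% of 18558 genes. All 18 were cluster genes. Intervals given below are 95% Clopper-Pearson intervals of the read ratio, placed on the TPM scale, and cover counting error only. For 28 of the 68 histone genes the whole interval lay above 1, against 40.6% of all detected genes, and for 6 it lay below, against 46.1%. The interval narrows with reads, and most cluster genes had under 100.

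**Figure D1:**
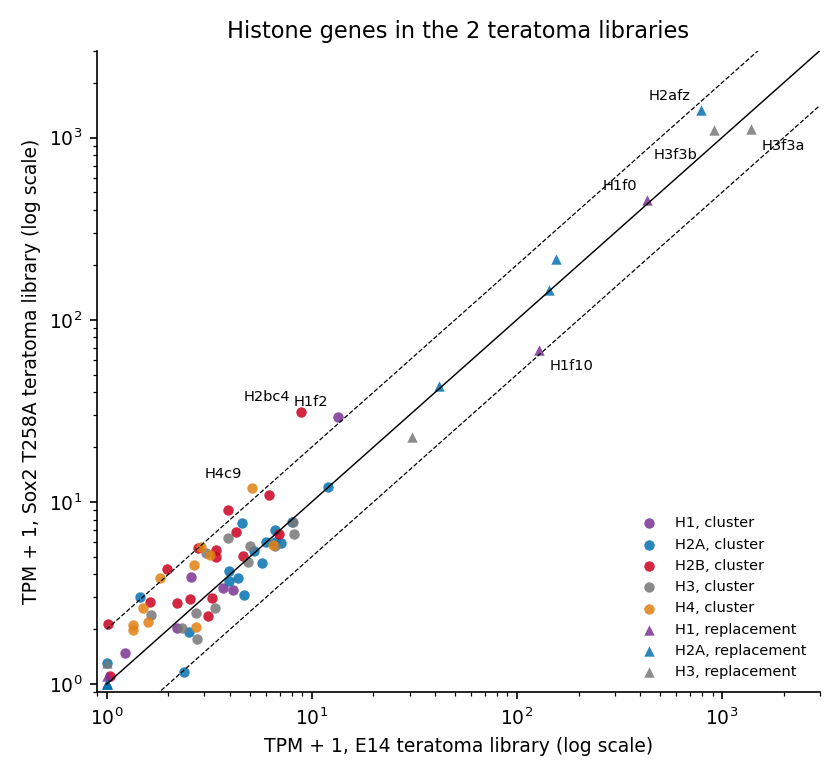
TPM with 1 added of each of the 78 histone genes in E14 (horizontal, log scale) and the Sox2 T258A library (vertical, log scale). Circles are cluster genes, triangles replacement genes, the solid line marks equal values and the dashed lines a 2-fold difference. The 9 replacement genes with a TPM of 1 or more lie to the right of all cluster genes. H2bc4, H1f2 and H4c9 lie above the upper dashed line, as do H2bc8, H2bc9, H2bc14, H4c1 and H2ac6.

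The class medians were close over all detected members. The median log2 ratio, T258A over E14 with 1 added to each TPM, was 0.08 over the 59 detected cluster genes (range -1.04 to 1.82) and 0.05 over the 9 replacement genes (-0.90 to 0.83). Over all 18558 genes it was -0.06, and over protein-coding genes with an average TPM between 1 and 10, where most cluster genes lie, it was 0.20. Protein-coding genes in the lowest decile of transcript length, up to 1191 bases, had a median of 0.28. The cluster median took in histone families that differed from each other, and it was 0.53, or 0.47 above the replacement median, when near-identical members were left out, those in which over 50% of the 50-base stretches of the transcript occur in another histone gene.

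Summed over Hist1 and Hist2, H2B and H4 transcripts were about 2-fold higher in T258A while H2A and H3 transcripts had nearly the same TPM in both. The 17 H2B genes summed to a TPM of 44.3 in E14 and 90.4 in T258A, 2.04-fold higher (1.89 to 2.25). This sum leaves out H2bu2, an H2B gene on chromosome 11 outside the symbol rule. H2bu2 had a TPM of 133 in E14 and 36.1 in T258A, and with it the H2B sum would be lower in T258A. The 11 H4 genes summed to 19.7 and 36.8, 1.87-fold higher (1.55 to 2.20). The 17 H2A genes summed to 69.2 and 67.8, a ratio of 0.979 (0.896 to 1.08), and the 12 H3 genes to 40.7 and 41.4, a ratio of 1.02 (0.896 to 1.14). The counting intervals of H2B and H4 did not meet those of H2A and H3. H2A made up 35.5% of the cluster TPM in E14 and 24.8% in T258A, and H2B 22.7% and 33.0%. In a nucleosome these 4 core histones are present in equal number. Scaling moved the H2A sum across 1, to a ratio of 1.13 on read counts scaled by library total, where the H3, H2B and H4 ratios were 1.16, 2.37 and 2.12.

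**Figure D2:**
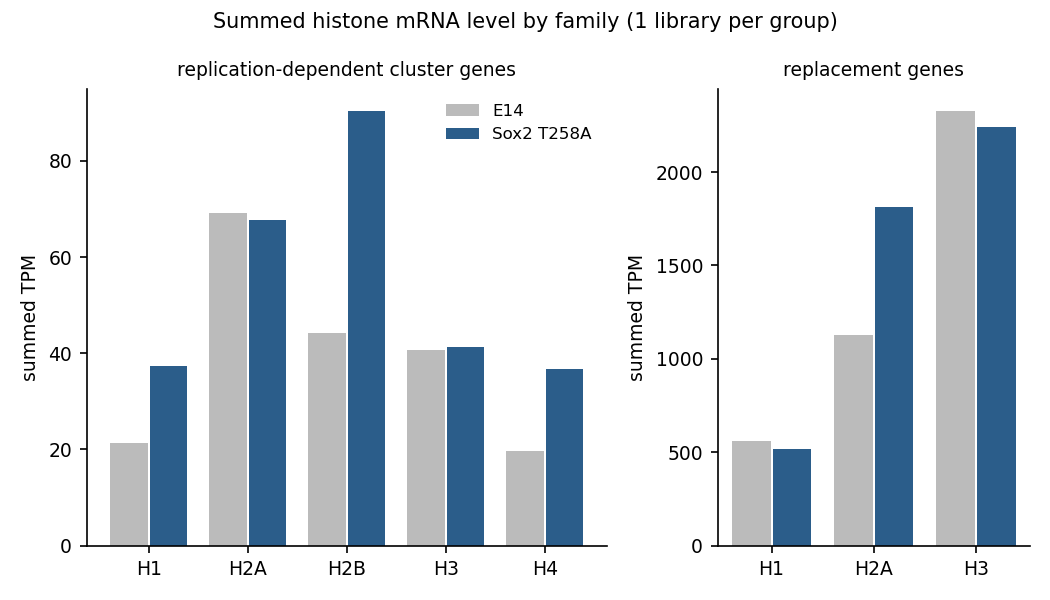
Summed TPM of the cluster genes (left) and the replacement genes (right) by histone family in E14 (grey) and the Sox2 T258A library (blue). Each bar is 1 library, so there are no error bars. The cluster H1, H2B and H4 bars and the replacement H2A bar are taller in T258A, and the cluster H2A and H3 bars are nearly level.

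Single genes followed the division by family. Among detected genes, 13 of 16 H2B genes and 8 of 10 H4 genes had higher TPM in T258A, against 47.5% of all detected genes, with median log2 ratios of 0.68 and 0.72. Higher TPM was also found in 980 of 1542 protein-coding genes in the lowest decile of transcript length. Of those with an average TPM between 1 and 10, 3172 of 5589 were higher. Of the H2A genes 7 of 16 were higher, and of the H3 genes 4 of 12, with medians of -0.08 and -0.11. Over the 26 H2B and H4 genes together, the counting interval lay above 1 for 17 and below 1 for 0, where all detected genes had 40.6% and 46.1%. Over the 28 H2A and H3 genes it lay above 1 for 5 and below 1 for 3. More than 2-fold differences upward were found in 6 of 16 H2B and 6 of 10 H4 genes, and in 1 of 16 H2A, 2 of 12 H3 and 1 of 5 H1 genes. Over all detected genes the share was 19.3%. It was higher among protein-coding genes with an average TPM between 1 and 10 (1819 of 5589). The same held in the lowest decile of transcript length (490 of 1542).

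**Figure D3:**
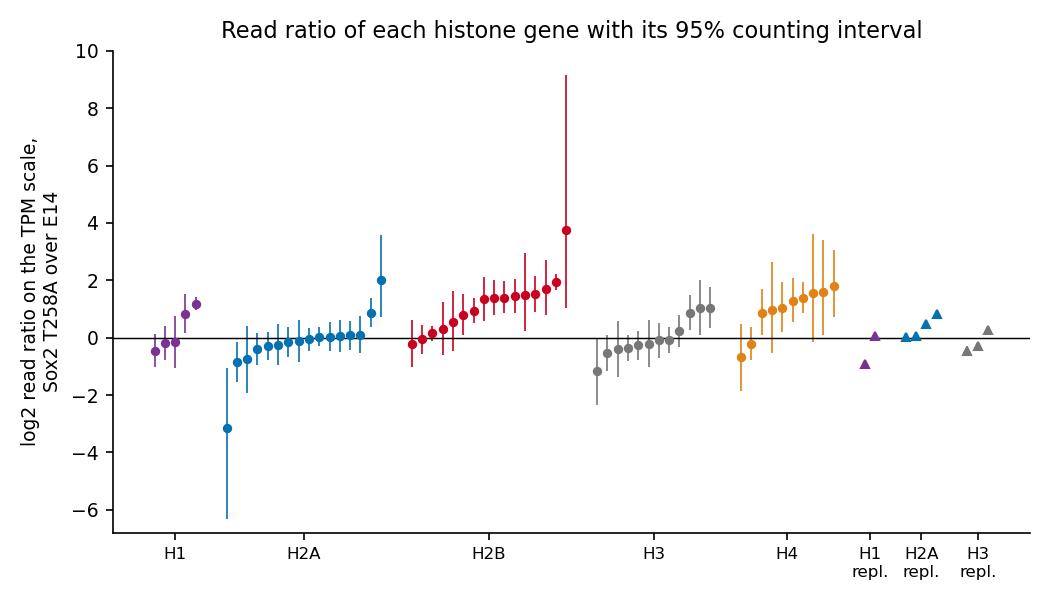
Log2 read ratio on the TPM scale, Sox2 T258A over E14, of the 68 detected histone genes, sorted within each family. Circles are cluster genes, triangles replacement genes (repl.), and bars are 95% counting intervals (Clopper-Pearson). Most H2B and H4 points lie above 0, while H2A and H3 points lie on both sides.

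Of the linker histones, H1f2 had the highest mean TPM of any cluster gene over both libraries, though H2bc4 was above it in T258A. H1f2 (NCBI gene 50708, chr13:23738807-23739531) had a TPM of 12.5 from 219 reads in E14 and 28.4 from 553 reads in T258A, 2.27-fold higher (1.93 to 2.66). It encodes histone H1.2 and, in its annotated transcript, carries 840 bases past the stem loop and a poly(A) signal at the end. The 6 cluster H1 genes summed to 21.3 and 37.4, but without H1f2 to 8.83 and 9.03. H1f1 had 29 reads in E14 and 58 in T258A (1.82-fold, 1.13 to 2.90). H1f3, H1f4 and H1f5 had intervals that included 1, with TPM of 3.14 and 2.28, 2.69 and 2.36, and 1.20 and 1.04 in E14 and T258A. The higher H1 sum therefore rested on 1 gene.

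Among H2A genes, H2ac18 of Hist2 was the most abundant, with a TPM of 11.0 in E14 and 11.1 in T258A. H2ac19, whose sequence it nearly shares, had 7.05 and 6.78, and H2ac13 of Hist1 had 5.66 and 6.03. Each of these 3 had an interval that included 1. H2ac21 (chr3:96219885-96220354) had the lowest ratio of any histone gene, from 16 reads to 2 (ratio 0.114, 0.0125 to 0.476), and H2ac15 had 48 reads in E14 and 30 in T258A (0.563, 0.342 to 0.902). In the other direction, H2ac6 went from 6 reads to 27, and H2ac8 from 49 to 100 (1.84-fold, 1.29 to 2.63).

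H2bc4 (NCBI gene 68024, chr13:23684199-23692480) had the highest log2 ratio of the 78 histone genes with 1 added to each TPM. With none added, the TPM fold was larger in H2ac6 and in H2bc14, which went from 1 read in E14 to 15 in T258A. The TPM of H2bc4 was 7.86 from 138 reads in E14 and 30.3 from 594 reads in T258A, 3.86-fold higher (3.20 to 4.67). It was the only histone gene at a TPM of 10 whose whole interval lay beyond 2-fold. The other H2B genes were also higher as a group, at 36.4 and 60.1 without H2bc4. H2bc12 had a TPM of 5.16 in E14 and 9.98 in T258A (1.93-fold, 1.41 to 2.63). H2bc8 had 2.91 and 8.02 (2.75-fold, 1.81 to 4.15), and H2bc9 0.976 and 3.31 (3.39-fold, 1.72 to 6.52). The interval of each of these 3 lay above 1. H2bc11 did not share the difference, at 5.90 and 5.67.

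H2bc6 showed where TPM and reads part. Its reads went from 29 to 92, but its TPM from 2.13 to 1.36, so that, with 1 added to each TPM, it ranked among the 5 lowest ratios of the detected cluster genes. It was 1 of 5 cluster genes whose transcript in the annotation is spliced, and the only one of 68 histone genes in which both measures lay on opposite sides of 1. In Hist1h2br the TPM ratio, 1.78, also lay outside the interval of its reads, 1.80 to 3.89. The H2B genes on chromosome 13 therefore had a summed TPM ratio of 2.20, under the interval of their reads of 2.32 to 2.85.

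Most H3 genes of the clusters were close to level. H3c3, the most abundant, had a TPM of 7.13 in E14 and 6.80 in T258A, and H3c10 had 7.20 and 5.63, both with intervals that included 1. H3c13 had 22 reads in E14 and 11 in T258A, a ratio of 0.435 (0.196 to 0.963). By contrast, H3c8, H3c7 and H3c4 had intervals above 1, with 25 and 57, 15 and 34, and 36 and 73 reads in E14 and T258A.

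Among H4 genes, H4c9 (NCBI gene 319158, chr13:22040960-22041362) passed the 2-fold rule. Its TPM was 4.14 from 41 reads in E14 and 10.9 from 119 reads in T258A, 2.63-fold higher (1.81 to 3.80). H4c1, H4c2, H4c12, H4c14 and Hist1h4n also had intervals above 1. H4c4, the most abundant H4 gene of E14, did not, at 5.50 and 4.80, and Hist1h4m had 17 reads in E14 and 12 in T258A (0.613, 0.275 to 1.40). Without H4c9 the H4 genes still summed to 15.6 and 25.9.

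H2A and H2B genes often lie head to head and share the stretch between their start sites. There were 12 such pairs, with start sites 176 to 306 bases apart. The log2 ratio of the H2B gene was above that of its H2A partner in 11 of 12 pairs, and the medians were 0.68 for H2B and -0.05 for H2A. The exception was the testis pair H2ac1 and H2bc1, which had at most 4 reads per gene and library. In the pair H2ac6 and H2bc4 both genes were higher in T258A, at log2 ratios of 1.05 and 1.82. The order in this pair depended on the value added to each TPM. With none added, the TPM fold was 4.43 for H2ac6 (1.63 to 11.9) and 3.86 for H2bc4 (3.20 to 4.67). In the pair H2ac12 and H2bc12, the H2A gene had a TPM of 4.76 in E14 and 3.60 in T258A, while the H2B gene was higher. The pair H2ac11 and H2bc11, some kilobases away, had both genes near level, with 64 reads of H2ac11 in each library.

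**Figure D4:**
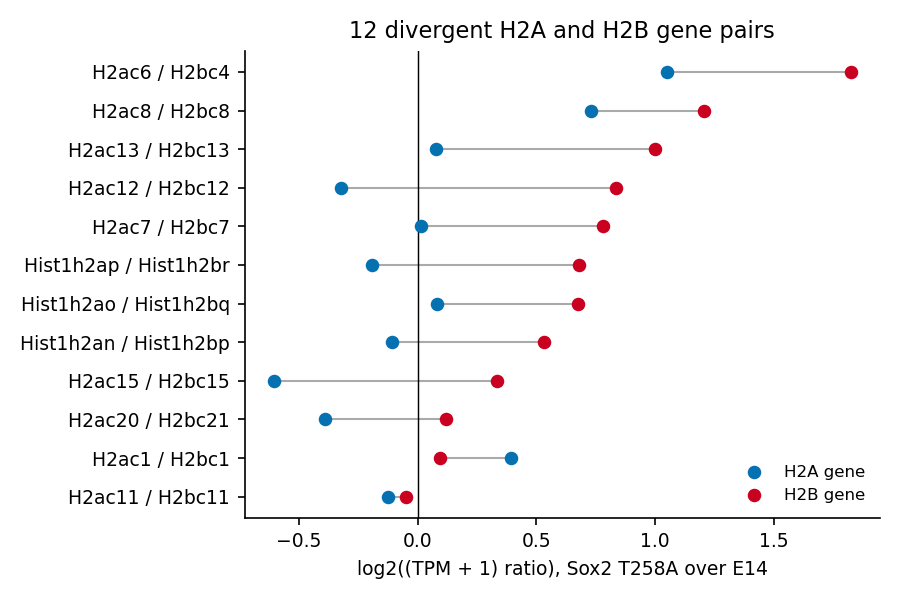
Log2 ratio with 1 added to each TPM, Sox2 T258A over E14, of the H2A gene (blue) and the H2B gene (red) of 12 divergent pairs, ordered by the H2B value. The red point lies to the right of the blue point in 11 of 12 pairs, and the exception, H2ac1 and H2bc1, is below a TPM of 1.

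The promoter windows of these 3 pairs, which have the highest summed TPM, are shown to compare a pair in which both genes were higher with one in which only the H2B gene was and one in which neither was. They are RefSeq windows on GRCm38 of 250 bases before to 50 after a start, 5′ to 3′ on the strand of the named gene, and cover all or nearly all of the stretch between the starts of the pair. Capitals mark the CCAAT box, the TATAAA box and the octamer ATTTGCAT on either strand, of which the octamer was chosen with the values known. These motifs do not overlap each other in the windows shown.
H2ac6 (minus strand, chr13:23683910-23684209): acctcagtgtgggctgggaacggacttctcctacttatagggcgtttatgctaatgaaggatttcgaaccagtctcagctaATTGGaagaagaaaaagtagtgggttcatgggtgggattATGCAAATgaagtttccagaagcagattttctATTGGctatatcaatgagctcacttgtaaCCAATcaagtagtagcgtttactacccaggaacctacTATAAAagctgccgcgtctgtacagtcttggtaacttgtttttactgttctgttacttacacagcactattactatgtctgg
H2bc12 (plus strand, chr13:22035571-22035870): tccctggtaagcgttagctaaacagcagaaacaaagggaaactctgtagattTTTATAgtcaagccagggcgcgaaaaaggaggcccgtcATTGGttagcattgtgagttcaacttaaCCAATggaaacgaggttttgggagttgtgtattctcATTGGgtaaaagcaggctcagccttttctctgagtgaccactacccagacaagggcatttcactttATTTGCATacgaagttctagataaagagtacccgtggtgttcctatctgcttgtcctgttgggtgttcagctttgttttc
H2bc11 (plus strand, chr13:22042948-22043247): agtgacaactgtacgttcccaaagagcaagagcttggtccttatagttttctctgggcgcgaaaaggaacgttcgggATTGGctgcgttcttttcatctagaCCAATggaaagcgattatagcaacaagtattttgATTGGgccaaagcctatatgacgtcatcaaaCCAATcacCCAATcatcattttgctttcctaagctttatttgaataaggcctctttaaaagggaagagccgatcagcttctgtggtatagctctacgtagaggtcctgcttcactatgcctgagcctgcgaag
The windows hold 3, 3 and 5 matches of CCAAT. Those of the first and second pair each hold 1 TATAAA and 1 octamer, and that of H2bc11 holds 0 of either. Whether these motifs go with the ratios was not tested.

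A promoter window was found for 72 of the 78 histone genes. CCAAT was in all windows of the cluster H1, H2A, H2B and H3 genes (6, 17, 15 and 10 genes) but in 3 of 10 H4 genes, against 41.1% of 27025 genes. TATAAA was in 34 of 58 cluster genes (58.6%) and 2 of 14 replacement genes, against 15.7% of all genes. The octamer was in 6 of 17 H2A and 7 of 15 H2B genes and in 0 of the H1, H3 and H4 genes, against 1.97% of all genes. By these letters, H2A genes were like H2B genes, and H4 genes were unlike both. A match is a description of the window and not a site of binding.

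The division by family held within Hist1, while in Hist2 the H2B sum was near level. On chromosome 13 the summed TPM ratio was 2.20 for H2B and 1.83 for H4, and 1.01 for H2A and 1.06 for H3. On chromosome 3 it was 1.02 over the 2 H2B genes (0.917 to 1.28 by reads), 0.908 over the 4 H2A genes and 0.673 over the 3 H3 genes. The 1 H4 gene there, H4c14, had 5 reads in E14 and 17 in T258A. Over all families, the cluster genes on chromosome 13 had log2 ratios with a median of 0.33 (49 genes) and those on chromosome 3 of -0.15 (10 genes), and every H2B gene with an interval above 1 was in Hist1.

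Other genes around Hist1 were higher in T258A as well. Of 37 detected non-histone protein-coding genes in the stretch from 20 to 30 Mb of chromosome 13, 29 had higher TPM, with a median log2 ratio of 0.75. Over the whole chromosome the median was 0.15 (572 genes), and around Hist2, from 90 to 100 Mb of chromosome 3, it was 0.00 (128 genes). H2B and H4 genes of Hist1, at 0.73 and 0.68, were thus near the median of their neighbours, and H2A and H3 genes, at -0.05 and -0.06, were below it. The part of this neighbourhood in the histone values was not tested.

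**Figure D5:**
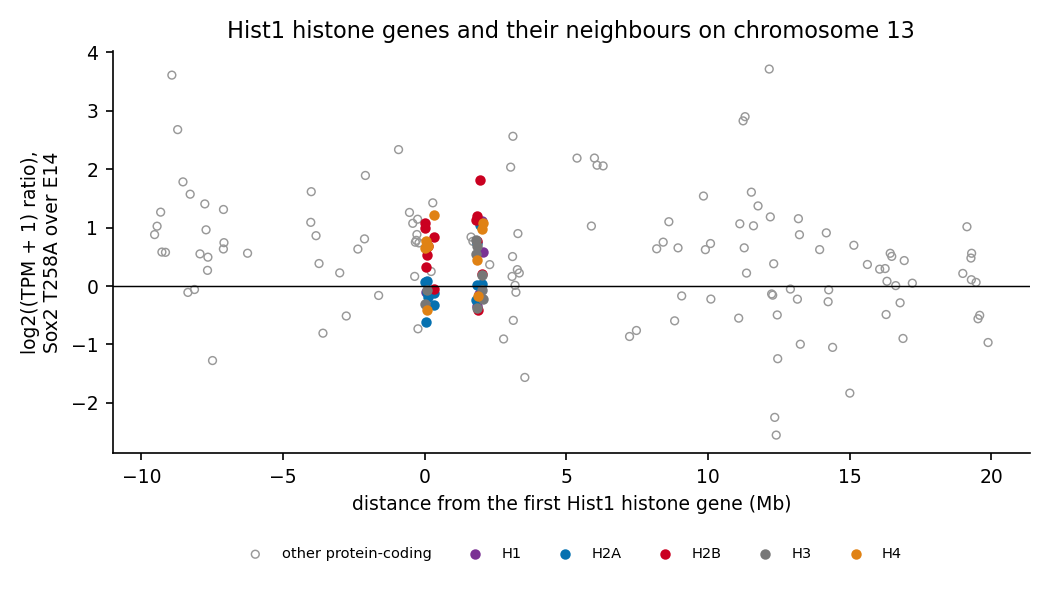
Log2 ratio with 1 added to each TPM, Sox2 T258A over E14, of histone genes (filled, by family) and other protein-coding genes (open), all detected, by distance in Mb from the first Hist1 gene on chromosome 13. Most open points near the histone genes lie above 0, and the H2A and H3 points lie around 0.

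Near-identical copies limit single-gene values in the clusters. In 30 of 63 cluster genes, over 50% of the 50-base stretches of the transcript occur in another histone gene, and how reads were shared among copies is not given. These 30 had a summed TPM of 113 in E14 and 127 in T258A, and the other 33 had 82.5 and 147. Among the latter, the summed ratio was 2.36 for H2B (10 genes), 1.91 for H4 (7 genes), 1.44 for H2A (5 genes) and 1.09 for H3 (5 genes), so the H2A ratio depended on the copies included. Genes annotated to run over 100 bases past the stem loop, or over 100 bases past the stop codon with no loop found, had a summed ratio of 1.99 (24 genes), those ending within 100 bases of it 1.17 (22 genes), and those annotated to end before it 0.971 (17 genes). H2bc4, H1f2 and H4c9 all belong to the first of these groups.

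Among replacement genes, the H2A.Z gene H2afz had the highest ratio of those that reached a TPM of 1. H2afz (chr3:137864487-137866922) had a TPM of 791 in E14 and 1411 in T258A, 1.78-fold higher (1.75 to 1.81), and was the most abundant histone transcript there. The second H2A.Z gene, H2afv, had 143 and 145, so that the ratio of H2afz to H2afv went from 5.53 to 9.74. H2A.Z replaces H2A at promoters and enhancers. H2afx, whose product H2A.X is phosphorylated at DNA breaks, had 155 and 216 (1.40-fold, 1.35 to 1.45), and H2afj, a variant found mainly in mammals, 40.7 and 42.2. None of these reached 2-fold on TPM, but H2afz did on FPKM and on library totals, at log2 ratios of 1.03 and 1.04.

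The H3.3 genes differed in opposite directions, so that their sum hardly differed. H3f3a had a TPM of 1385 in E14 and 1119 in T258A (0.808, 0.796 to 0.820), and H3f3b had 914 and 1102 (1.21, 1.19 to 1.22). Both encode the same H3.3 protein, and together they had 2299 and 2221. The ratio of H3f3a to H3f3b was 1.52 in E14 and 1.01 in T258A, a comparison within libraries that scaling cannot change. H3f3c had 29.9 and 21.8 (0.730, 0.655 to 0.814), and 67.7% of its 50-base stretches occur in other histone genes. Processed copies of H3f3a outside the symbol rule, H3f3a-ps1 and H3f3a-ps2, were listed at 39.4 and 64.5 and at 29.8 and 64.6, and reads of such copies cannot be fully told apart from those of H3f3a.

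The replacement linker histones also parted. H1f0, which encodes H1.0, the linker histone of differentiated and resting cells, had a TPM of 433 in E14 and 452 in T258A. H1f10, which encodes H1.X, had 127 and 67.6, a ratio of 0.531 (0.502 to 0.563), the lowest among replacement genes with a TPM of 1 and just short of 2-fold. The ratio of H1f0 to H1f10 was 3.40 and 6.69. The oocyte linker histone H1f8, the spermatid linker histone H1f7 and H3f4 had 0 reads in E14 and 4, 1 and 5 in T258A. The 3 H2afb genes, testis variants on the X chromosome, had 0 reads in both libraries, which allows up to 3 reads of each.

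The testis members of the clusters were scarce in both libraries. H1f6 had 5 reads in E14 and 10 in T258A, H2bc1 1 and 2, and H2ac1 0 and 4. None reached a TPM of 1. A list of 10 spermatogenic cell genes was higher where detected, in 5 of 5, with Sycp3 at a TPM of 0.342 and 26.0 and Dazl at 3.12 and 53.6, and the other 5, among them the protamines Prm1 and Prm2 that replace histones in sperm, were at 0 in both libraries.

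Factors that process replication-dependent histone mRNA did not move together. Of 21 factors on the 3′ processing list, 8 were higher and 13 lower, at a median log2 ratio of -0.04. Slbp, which binds the stem loop, had a TPM of 74.8 in E14 and 124 in T258A (1.65-fold, 1.59 to 1.73). Lsm10 and Lsm11, subunits found in the U7 particle that directs cleavage and not in spliceosomal particles, were more than 2-fold lower, at 60.7 and 26.9 and at 15.02 and 4.72. Snrpe and Snrpg, Sm proteins that U7 shares with spliceosomal particles, had 365 and 748 and 489 and 799, of which Snrpe was more than 2-fold higher. Zfp473, a zinc finger protein that also acts with U7, had 3.63 and 5.51, and Eri1, a nuclease that also binds the stem loop, 22.4 and 20.03. Both were named with their values seen. Lsm10 and Lsm11 were thus both lower, while the other factors named here lay on both sides of 1.

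Histone chaperones lay on both sides of 1 in each class. Of 17 replication-coupled chaperones and partners, 11 had higher TPM in T258A, against 47.5% of all detected genes, with a median log2 ratio of 0.26. Hat1, which acetylates new H4, had a TPM of 81.7 in E14 and 241 in T258A, and Mms22l, which acts with Tonsl at replication forks, had 8.79 and 18.2. Both were more than 2-fold higher. Nap1l1 had 325 and 480, and Rbbp7 294 and 328. Of 17 chaperones and remodelers of replacement histones, 12 had lower TPM, against 52.5% of all detected genes, with a median of -0.48. Whether the classes differed was not tested. Srcap, the motor of a complex that deposits H2A.Z, had 38.8 and 18.0, and Dek, an H3.3 chaperone encoded on chromosome 13, 76.1 and 169. Anp32e, which removes H2A.Z, had 126 and 141, and Ruvbl2, a subunit of the H2A.Z remodelers, 148 and 143.

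Markers of cycling cells and of cell types also differed between the libraries. Of 34 S phase and replication genes, 29 had higher TPM in T258A (median log2 ratio 0.47), with Pcna at 234 and 324, Mcm7 at 168 and 205, Mcm10 at 13.3 and 30.7 and Ccne2 at 5.24 and 16.2. Of 20 G2 and M phase genes 16 were higher (0.46), with Ube2c at 120 and 218 and Bub1 at 21.5 and 44.1, but Mki67 was lower, at 137 and 54.7, and Top2a had 155 and 153. All 10 pluripotency genes were higher, from a summed TPM of 88.9 to 1947, with Dppa5a at 29.1 and 1144, Pou5f1 at 19.03 and 304 and Zfp42 at 3.88 and 85.2, and all 12 neuronal genes were lower, from 3458 to 550, with Tubb3 at 1722 and 170, Gap43 at 474 and 106 and Mapt at 265 and 18.2. All 10 macrophage genes were higher, from a summed TPM of 1063 to 1852, with Lyz2 at 457 and 943, C1qc at 164 and 212, Ctss at 72.8 and 181 and Mrc1 at 8.42 and 20.7. Of 6 detected erythroid genes 4 were higher, from 432 to 458 over the list, with Hbb-bs at 141 and 162, Hba-a1 at 122 and 96.5 and Tfrc at 40.4 and 65.7, and Klf1, not detected, had 0.984 and 0.375. Sox2, whose alleles the counts do not separate, had a TPM of 246 and 130. The part of these lists in the histone values was not tested.

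Scaling set the level of every ratio. Mitochondrial transcripts took up 5.17% of TPM in E14 but 9.70% in the other, and the ratio of TPM was 0.869 times that of reads scaled by library total. The median log2 ratio of all detected genes was accordingly -0.06 on TPM, 0.11 on FPKM or library totals and 0.01 with edgeR's TMM factors. The summed ratio of the cluster genes under the symbol rule was 1.40 on TPM and 1.67 on library totals, and that of replacement genes 1.14 and 1.31.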

How the data were processed

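RNA-seq of 1 E14 teratoma and 1 Sox2 T258A teratoma was used. Per the labels, polyA RNA was sequenced, and the submitters' processing notes name bcl2fastq 2.20.0, Trimmomatic, HISAT2 2.1.0 and StringTie 2.1.3b with mm10 (hg19 is also listed). How multiply mapped reads were shared, and whether strand was used, is not given in the sources used here. The authors deposited raw read counts, FPKM (per kilobase of transcript and library size) and TPM (FPKM brought to a fixed sum). The table has 50529171 and 49030281 reads.

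Genes were matched by NCBI identifier to RefSeq on GRCm38 (45675 of 45777). Transcript features came from GENCODE M21, where all 78 members matched. Ratios used TPM with 1 added. No test was possible with 1 library per group. Counting intervals were 95% Clopper-Pearson, reads being taken as independent, and a count of 0 allows 3 reads. Members and lists were chosen with earlier results of these data known, and Slbp and Mcm2 each stand in more than 1 list. Ars2 and Ahsp were not found by symbol.

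Named genes were replacement members past a TPM of 1, the 10 cluster genes of highest mean TPM, their 5 highest and 5 lowest ratios, testis members, the 3 most abundant divergent pairs, members past 2-fold, in each list Slbp, the 2 most abundant and the 2 most changed genes, and Sox2. H1f1, H1f3, H1f4, H1f5, H2ac8, H2bc14, H2bc6's companion Hist1h2br, H3c4, H3c7, H3c8, H4c1, H4c2, H4c4, H4c12, H4c14, Hist1h4n, Zfp473, Eri1 and the H3f3a copies were added with their values seen. Alternatives covered scaling, pseudocount, filters, fold and members left out. Scripts were tested on simulated independent counts, with changes placed only in genes of higher count. That test did not cover genes of few reads or reads shared among copies. R 4.3.3 with edgeR 4.0.16 and Python 3.11.15 with scipy 1.17.1, pandas 2.3.3, numpy 2.4.6 and matplotlib 3.10.9 were used.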

Additional observations from a re-analysis of the deposited data

How the results depend on the processing

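No paired analysis was possible because each group has 1 library, and for the same reason no library could be left out. Family sums, pairs, lists and single genes were given further settings after the data were seen. Depth limits single cluster genes, most of which had under 100 reads, more than the sums. Of the alternative values computed for the main results, 159 stayed within 1.5 times (counts) or within the interval of the value, and 70 moved. For medians and their difference this was an order-statistic interval over genes, which was -0.06 to 0.58 for the cluster median. Genes are not replicates, so that interval only sorts the settings and is not an error of the median. The cause of a move was not tested beyond what each setting leaves out.

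Of the 3 histone genes past 2-fold upward, 0 remained without chromosome 13, 1 with a fold above 3, 1 where both libraries had to reach a TPM of 10 and 1 with the whole interval beyond 2-fold, against 16 among genes reaching a TPM of 1. On FPKM and on library totals they were 4, with H2afz. Downward, 0 became 1 with a fold above 1.5 and 2 with a TPM of at least 1. The cluster median was 0.53 without near-identical members, -0.15 without chromosome 13, 1.17 with a TPM of at least 10 (4 genes) and -0.10 relative to protein-coding genes of like length. The difference of class medians was 0.47 without near-identical members, -0.20 without chromosome 13 and 1.11 with a TPM of at least 10.

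The summed cluster ratio was 1.61 on FPKM, 1.67 on library totals, 1.53 on TMM, 1.54 on median-of-ratios and 1.47 without mitochondrial genes, 1.78 without near-identical members and 0.929 without chromosome 13. The summed replacement ratio was 1.31 on FPKM and on library totals, 1.20 on TMM, on median-of-ratios and without mitochondrial genes, 1.13 without H2afx and 1.31 without H3f3a. By family, cluster H1 was 2.01 on FPKM and 1.02 without H1f2. Cluster H2A was 1.12 on FPKM, 1.13 on library totals and 1.44 without near-identical members. Cluster H2B was 2.34 on FPKM, 2.37 on library totals, 2.36 without near-identical members, 1.02 without chromosome 13 and 1.65 without H2bc4. Cluster H3 was 1.17 on FPKM, 1.16 on library totals and 0.673 without chromosome 13, and H4 was 3.15 from its 1 gene outside chromosome 13. Replacement H1 was 1.07, 1.13, 1.04, 1.04 and 0.975 on FPKM, library totals, TMM, median-of-ratios and without mitochondrial genes, and 0.532 without H1f0. Replacement H2A was 1.84, 1.78, 1.63, 1.64 and 1.69 on these scales and 1.19 without H2afz. Replacement H3 was 1.11, 1.18, 1.08, 1.08 and 1.01, and 1.19 without H3f3a.

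Cluster genes held 1.92% and 2.44% of histone reads in the E14 and T258A libraries, 2.03% and 3.12% of histone TPM without near-identical members, 0.795% and 0.649% without chromosome 13, 4.35% and 5.09% without H1f2, and 6.90% and 7.34% without H3f3a. The median of the G2 and M phase list was 0.64 on FPKM and 0.66 on library totals. The H2B gene had the higher ratio in 11 of 12 pairs on every scale run and with a pseudocount of 0.1. With no pseudocount, H2ac6 had a higher TPM fold than its partner H2bc4.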

Other observations

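Several histone genes fall outside the symbol rule and were picked here for their names. H2bu2, an H2B gene on chromosome 11 outside the main clusters, had a TPM of 133 in E14 and 36.1 in T258A, 3.70-fold lower (3.33 to 4.12), in contrast to the H2B genes of Hist1, and at more than the E14 level of all 17 cluster H2B genes together. H2bfm, on the X chromosome, went the other way, from 5 reads to 89. H2c8, an H4 gene on chromosome 13, had 19 reads in E14 and 40 in T258A. The macroH2A genes, whose products carry a large extra domain and are enriched on silent chromatin, were both lower. Macroh2a1 had a TPM of 219 and 168, and Macroh2a2 178 and 91.0 (1.96-fold lower, 1.95 to 2.095). Cenpa, the H3 variant of centromeres, had 80.5 and 138 (1.71-fold, 1.57 to 1.73).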
